A study of Homo sapiens with 6 samples.

Results

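Vitamin D metabolism was examined through 9 transcripts in NCI-H660 (H660), an established line of neuroendocrine prostate cancer (NEPC): *CYP24A1*, *VDR*, *RXRA*, *RXRB*, *RXRG*, *CYP27B1*, *CYP2R1*, *TRPV6* and *CALB1*. They were found by symbol among the 28008 genes of the count table, and all 9 were listed. The set was chosen by the measured *CYP24A1* counts, which rose strongly from a low level in this comparison, so the *CYP24A1* values are a description and carry no test. All 6 libraries came from H660 cells transduced with a tetracycline-inducible MUC1 shRNA in the pLKO-tet-puro vector and selected in puromycin. The DOX-negative libraries (n = 3) were from cells given 0.1% DMSO, and the DOX-positive libraries (n = 3) were from cells given doxycycline (DOX) at 500 ng/ml to silence MUC1-C. A week of DOX is the exposure stated for these libraries in the paper. A single hairpin was used and no library of DOX-treated cells with a control hairpin was analysed here, so MUC1-C silencing and DOX itself cannot be told apart. The labels and the methods both name RPMI medium with serum but differ in the serum content and in added hormones, and vitamin D metabolites in the medium were not analysed here.

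Vitamin D becomes a hormone through successive hydroxylations. CYP2R1 in the endoplasmic reticulum makes calcidiol, the circulating form, and CYP27B1 in mitochondria converts it to calcitriol, the active hormone. Calcitriol binds the vitamin D receptor (VDR), which pairs with a retinoid X receptor (RXR) on DNA. Among the genes that this pair activates is *CYP24A1*, whose mitochondrial enzyme degrades both calcidiol and calcitriol, so that the pathway limits itself. In prostate epithelium the pathway is known for restraining growth and favouring differentiation.

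Libraries held 47620696 to 74061121 counts. *MUC1*, the targeted gene, averaged 86.0 ± 5.65 CPM without DOX and 34.6 ± 4.08 CPM under DOX (SD, n = 3), where CPM are counts scaled to library size (log2 fold change -1.32, SE 0.096, adjusted p = 0.00017). Here and below, fold changes are DOX-positive over DOX-negative on the log2 scale from edgeR, and called genes are those whose adjusted p was below 0.05. The neuroendocrine markers of the line were expressed, with 8 of them summing to 283.5 to 400.4 TPM without DOX and 258.3 to 414.4 TPM with DOX, and 2 of the 8, *NCAM1* (-0.50) and *INSM1* (-0.45), were called lower. The labels describe RNA from cells cultured in triplicate, and p values therefore measure the spread between these cultures, which may be partly technical.

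*CYP24A1* encodes the catabolic enzyme. Its counts were 7, 15 and 6 in the DOX-negative libraries and 73, 52 and 84 in the DOX-positive libraries. On the CPM scale these were 0.11, 0.242 and 0.126 without DOX and 0.966, 0.946 and 1.14 with DOX. Every DOX-positive library was above every DOX-negative library, as for 14.8% of all tested genes. DOX-negative replicate 2 was the highest of its group. Exact 95% Poisson intervals of the single libraries reached at most 0.40 CPM without DOX and began at 0.706 CPM or higher with DOX. These intervals cover counting error only and, for a gene chosen by this difference, they are no test. On average *CYP24A1* went from 0.159 ± 0.0725 to 1.02 ± 0.106 CPM (SD, n = 3). The fitted log2 fold change was 2.65 (SE 0.30), or 6.26-fold. It ranked 1 of the 17026 tested genes by this value, which belongs to the contrast that chose it. The level remained low with DOX, at 0.176 ± 0.039 TPM (a length-adjusted transcript level) against 0.028 ± 0.015 TPM without DOX. Only 12.2% of the tested genes had a lower mean count. The size of the difference rested in part on DOX-negative replicate 2, because the log2 fold change was 3.10 without that library and between 2.41 and 2.70 when any other library was left out.

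**Figure D1:**
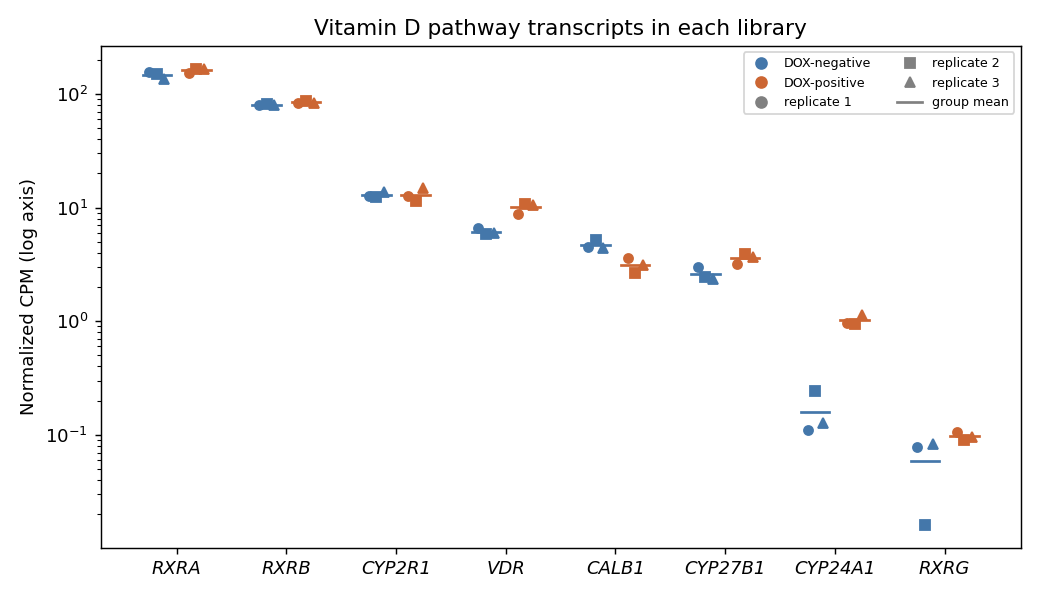
Normalized CPM on a log axis for 8 vitamin D pathway transcripts, with 1 point per library (symbol shape gives the replicate) and a line at each group mean. *CYP24A1* sits at 0.11 to 0.242 CPM without DOX and 0.946 to 1.14 CPM with DOX, *VDR* and *CYP27B1* are higher in every DOX-positive library, *CALB1* is lower, and *RXRA* and *CYP2R1* overlap between the groups.

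The receptor was examined next. *VDR* was at 6.57, 5.87 and 5.96 CPM without DOX and at 8.82, 10.8 and 10.6 CPM with DOX. The groups did not overlap, and DOX-positive replicate 1 was the lowest of its group. *VDR* rose 1.64-fold (log2 fold change 0.72, SE 0.11, adjusted p = 0.0075). The call was lost without DOX-negative replicate 3, where the change was 0.69 with an adjusted p of 0.068, and in a fit of log2(TPM + 1) in which 0 genes were called. In the other 16 alternatives that tested *VDR* it was called, with changes from 0.67 to 0.81.

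RXR is the partner that VDR needs to bind its elements. Of the RXR genes *RXRA* had the highest level and *RXRB* was also well expressed. *RXRA* was at 157.0, 149.0 and 135.0 CPM without DOX and at 151.8, 166.6 and 164.9 CPM with DOX, so the groups overlapped, with a change of 0.13 (SE 0.078, adjusted p = 0.36). *RXRB* was at 80.2, 81.7 and 80.3 CPM against 83.6, 86.5 and 82.6 CPM. Its libraries did not overlap, but the change was only 0.061 (SE 0.068, adjusted p = 0.66). Across all tested genes, 28.1% had groups that did not overlap. *RXRG*, the form known from muscle and brain, had 5, 1 and 4 counts without DOX and 8, 5 and 7 counts with DOX, and did not pass the filter on low counts. Summed over each group, *RXRG* was at 0.058 CPM (95% interval 0.028 to 0.106) and 0.098 CPM (0.060 to 0.151), and these intervals overlapped.

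The activating enzymes were then compared. *CYP27B1* was at 2.97, 2.44 and 2.33 CPM without DOX and at 3.20, 3.89 and 3.66 CPM with DOX. No DOX-positive library reached down to the DOX-negative range, although DOX-positive replicate 1 lay close to DOX-negative replicate 1. The log2 fold change was 0.47 (SE 0.14) with an adjusted p of 0.083, which did not pass the threshold. It passed in 1 of 18 alternatives, the fit with GC and length trends removed (0.42, adjusted p = 0.049). *CYP2R1* was at 12.7, 12.4 and 13.8 CPM without DOX and at 12.6, 11.3 and 14.8 CPM with DOX, with a change of -0.0048 (SE 0.11, adjusted p = 0.99). Its groups overlapped fully, with DOX-positive replicates 2 and 3 forming the lowest and the highest value. *CYP2R1* shares its genomic interval with *PDE3B* in the RefSeq table, and the strand setting of the counting was not given in the sources used here, so its count is uncertain.

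The last pair of members encode calcium handling proteins that calcitriol is known to induce in intestine and kidney. *CALB1* encodes the calcium buffer calbindin D28k and was at 4.48, 5.2 and 4.39 CPM without DOX and at 3.60, 2.64 and 3.13 CPM with DOX. All 3 DOX-positive libraries were below the DOX-negative range, and *CALB1* fell by 0.58 on the log2 scale (SE 0.14, adjusted p = 0.038). Its call did not hold in 7 of 18 alternatives, among them the fits without DOX-negative replicate 1, 2 or 3 and without DOX-positive replicate 2 or 3 (-0.70 to -0.48 over all fits without 1 library). *CALB1* also overlaps LOC124901976 in the RefSeq table. *TRPV6*, an epithelial calcium channel, had 0 counts in 5 libraries and 1 count in DOX-positive replicate 1. For the libraries at 0, a count of 0 allows up to 0.041 to 0.063 CPM (3 counts per library, a one-sided limit), so a difference in *TRPV6* was not detectable at this depth.

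Of the 9 members, 7 passed the filter on low counts, *CYP24A1* with most of its counts in the DOX-positive libraries. Leaving aside *CYP24A1*, which carries no test, 2 members were called, *VDR* higher and *CALB1* lower. Among all tested genes 4.87% were called, 2.91% higher and 1.96% lower. Since the members were chosen with these results known, nothing is read from that count.

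Levels per gene length were compared in TPM. Over all 6 libraries the order was *RXRA* (mean 11.4 TPM, range 8.42 to 13.8), *CYP2R1* (4.79, 3.43 to 5.72), *RXRB* (2.42, 1.99 to 3.02), *CALB1* (0.888), *VDR* (0.855), *CYP27B1* (0.706), *CYP24A1* (0.102), *RXRG* (0.016) and *TRPV6* (0.00025). *CALB1*, *VDR* and *CYP27B1* had overlapping ranges, as did *CYP24A1* and *RXRG*, whereas the other neighbours in this order did not overlap. Without adjustment for length *RXRB* was above *CYP2R1*, at 80.2 to 86.5 CPM against 11.3 to 14.8 CPM over the libraries. The place of *CYP2R1* above *RXRB* therefore rests on the gene lengths behind the deposited TPM. Those lengths were not checked, so the order of these genes in transcript level is left undecided. TPM in a library depended on how much the most abundant RNA took of it, from 25.7% to 34.5%. This RNA was *RN7SK* in all libraries but DOX-negative replicate 3, where it was *SNORD3A*. For this reason changes of single genes were read from counts or CPM. The TPM of *CYP24A1* by group and the TPM sums of markers carry this share and give levels only.

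Ratios of members within a library do not depend on that share. The ratio of *CYP24A1* to *CYP27B1* TPM, that is of the catabolic to the activating enzyme, was 0.027, 0.074 and 0.040 in the DOX-negative libraries and 0.225, 0.181 and 0.232 in the DOX-positive libraries. Its mean was 0.047 ± 0.024 without DOX and 0.213 ± 0.028 with DOX (SD, n = 3), a 4.50-fold difference in means. In every library the activating enzyme had the higher transcript level. The ratio of *VDR* to *RXRA* TPM was 0.060, 0.056 and 0.063 without DOX and 0.083, 0.093 and 0.092 with DOX. *VDR* was thus far below *RXRA* in all 6 libraries, and no DOX-negative ratio reached the DOX-positive range. These ratios are descriptions without a test, because the *CYP24A1* contrast chose the set.

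**Figure D2:**
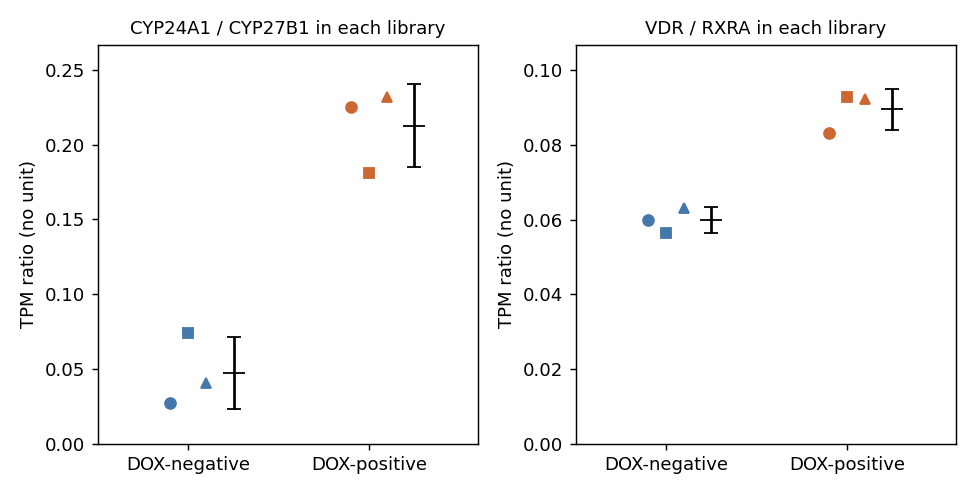
Ratios of transcript levels in TPM within each library, for *CYP24A1* over *CYP27B1* (left) and *VDR* over *RXRA* (right). Coloured points are libraries, with symbol shape giving the replicate, and black bars give the mean ± SD of 3 libraries. The first ratio spans 0.027 to 0.074 without DOX and 0.181 to 0.232 with DOX, and the second spans 0.056 to 0.063 and 0.083 to 0.093.

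Other steps of vitamin D handling were compared as a list of 9 genes for synthesis, uptake and other hydroxylases. Of these 6 were tested, 3 higher and 3 lower. By edgeR 0 of them were called, beside 4.87% of all tested genes. An unadjusted p under 0.05 was found for 3 of them, beside 3597 of all 17026 tested genes. DESeq2 called the same 3, *DHCR7*, *LRP2* and *CYP2J2*, beside 1354 of the 22564 genes it fitted. With so few genes, nothing is read from 0 called, here or for the electron donors below. The fold changes had a median of -0.16 against 0.00034 over all tested genes. *DHCR7*, which diverts the skin precursor of vitamin D to cholesterol, was at 56.2, 67.3 and 61.8 CPM without DOX and 51.7, 50.5 and 34.7 CPM with DOX (-0.44, SE 0.13, adjusted p = 0.086). The *DHCR7* change was -0.27 without DOX-positive replicate 3 and ranged to -0.54 over the other fits without 1 library. *LRP2*, the megalin receptor that takes up calcidiol with its carrier, was at 54.5, 66.0 and 65.7 CPM without DOX and 54.5, 39.3 and 33.0 CPM with DOX (-0.55, SE 0.16, adjusted p = 0.087). Each was lowest in DOX-positive replicate 3, and each was called in some alternatives, *DHCR7* in 3 and *LRP2* in 2 of 20. *CYP2J2*, an epoxygenase that can also hydroxylate vitamin D, was at 4.52, 4.25 and 3.91 CPM against 5.16, 5.93 and 7.15 CPM (0.52, SE 0.14, adjusted p = 0.0505). The electron donors of these enzymes were expressed and 0 of 5 were called by edgeR or DESeq2, with 0 at an unadjusted p under 0.05, and with *POR*, which serves CYP2R1, at 25.5 TPM (0.068, SE 0.078, adjusted p = 0.67) and *FDX1*, the ferredoxin of the mitochondrial enzymes CYP27B1 and CYP24A1, at 5.89 TPM (0.011, SE 0.087, adjusted p = 0.96). *FDX2*, listed under its older symbol FDX1L and known for iron-sulfur cluster synthesis, was at 16.3 TPM (0.196, SE 0.10, adjusted p = 0.298).

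To place *CYP24A1* among its relatives, all protein-coding cytochrome P450 genes in the table were compared. Of 55, 26 were tested, 18 higher and 8 lower with *CYP24A1* included, and their median log2 fold change was 0.12. Leaving aside *CYP24A1*, 2 of these genes were called, both higher, beside 2.91% called higher among all tested genes. *CYP1A1*, the aryl hydrocarbon receptor target that metabolizes polycyclic compounds, was at 52.1, 34.8 and 36.5 CPM without DOX and 59.4, 78.2 and 82.6 CPM with DOX. It rose by 0.83 (SE 0.17, adjusted p = 0.027), and that call was lost in 10 of 20 alternatives, the replicate block and the fit with GC and length trends removed among them (0.73 to 1.04 over the fits without 1 library). *CYP19A1*, the aromatase that makes estrogens, rose from 0.21 ± 0.036 to 0.522 ± 0.10 CPM (SD, n = 3; 1.28, SE 0.30, adjusted p = 0.032), with a mean of only 23.8 counts and the call lost in 6 of 17 alternatives, 5 of them fits without 1 library. *CYP51A1* of cholesterol synthesis was among the most abundant and was at -0.098 (SE 0.089, adjusted p = 0.58).

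**Figure D3:**
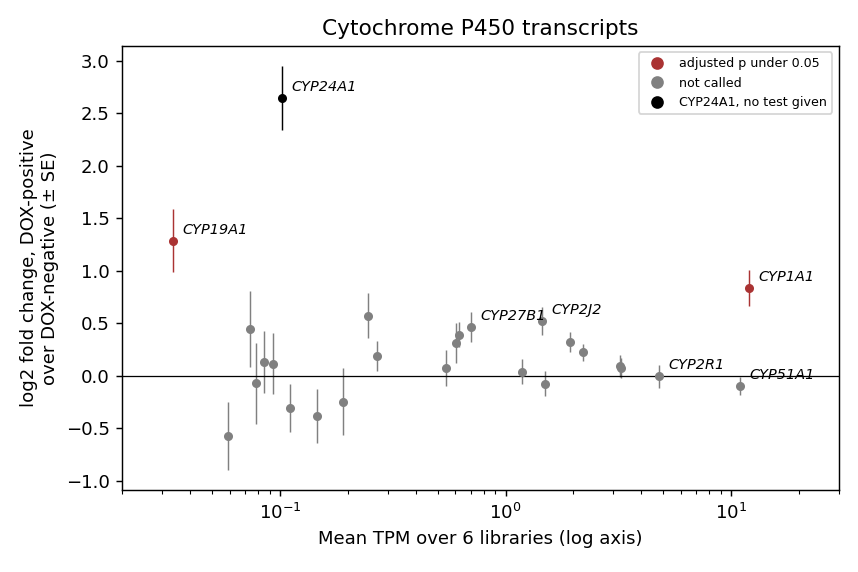
Log2 fold change of DOX-positive over DOX-negative (± SE) against mean TPM on a log axis for the 26 tested cytochrome P450 genes. *CYP24A1* (black, no test given) lies at 2.65 at a mean of 0.102 TPM, the called *CYP19A1* and *CYP1A1* (red) lie at 1.28 and 0.83, and *CYP27B1* and *CYP2R1* (grey) lie at 0.47 and -0.0048.

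Genes that calcitriol is known to regulate in other cells were examined as a list of 34, of which 25 were tested. Of these, 19 were higher and 6 lower, beside 8528 higher and 8498 lower among all tested genes, and the median log2 fold change was 0.0999. The 3 called genes, all higher, were 12% of those tested, beside 4.87% called among all tested genes. The list was not sorted by the direction in which calcitriol moves each gene, so no reading of pathway activity is drawn from these counts. *CAMP*, which encodes the antimicrobial peptide cathelicidin and is a direct VDR target in human cells, was at 6.21, 5.04 and 4.89 CPM without DOX and 7.61, 9.98 and 10.0 CPM with DOX. It rose 1.70-fold (0.77, SE 0.14, adjusted p = 0.012), with DOX-positive replicate 1 again the lowest of its group. *CDKN1A*, the cell cycle inhibitor p21, was at 444.8, 418.4 and 369.6 CPM without DOX and 520.9, 658.6 and 717.1 CPM with DOX (0.62, SE 0.11, adjusted p = 0.013). *GADD45A*, a growth arrest gene, rose from 51.3 ± 3.53 to 64.3 ± 2.46 CPM (SD, n = 3; 0.33, SE 0.078, adjusted p = 0.036). *CDKN1A* and *GADD45A* are also known targets of p53. *TXNIP*, another abundant member, was at -0.017 (SE 0.16, adjusted p = 0.97). Without DOX-negative replicate 3 the calls of all 3 were lost, at 0.70 for *CAMP*, 0.55 for *CDKN1A* and 0.26 for *GADD45A*, and likewise without DOX-negative replicate 2, at 0.72, 0.64 and 0.35. *CDKN1A* was also not called without DOX-positive replicate 2 (0.59), nor *GADD45A* without DOX-negative replicate 1 (0.36) or DOX-positive replicate 3 (0.29). Of 20 alternatives the call was lost in 5 for *CAMP*, 6 for *CDKN1A* and 8 for *GADD45A*. The 3 TPM fits were among these for each gene, and the fit with no scaling factors for *GADD45A*. *CDKN1A*, like *CYP19A1* above and *HR*, *THRB*, *DHRS3*, *RDH10* and *CALB2* below, overlaps another RefSeq gene. Its count is therefore uncertain in the same way as that of *CYP2R1*. Of the 34 genes, 9 were not tested, among them *S100G* and *CYP3A4* at 0 counts in every library and *TRPV5* at 1 count in all, whereas *KL*, the renal FGF23 coreceptor, was at 6.53 to 7.65 CPM (-0.18, SE 0.097, adjusted p = 0.31).

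**Figure D4:**
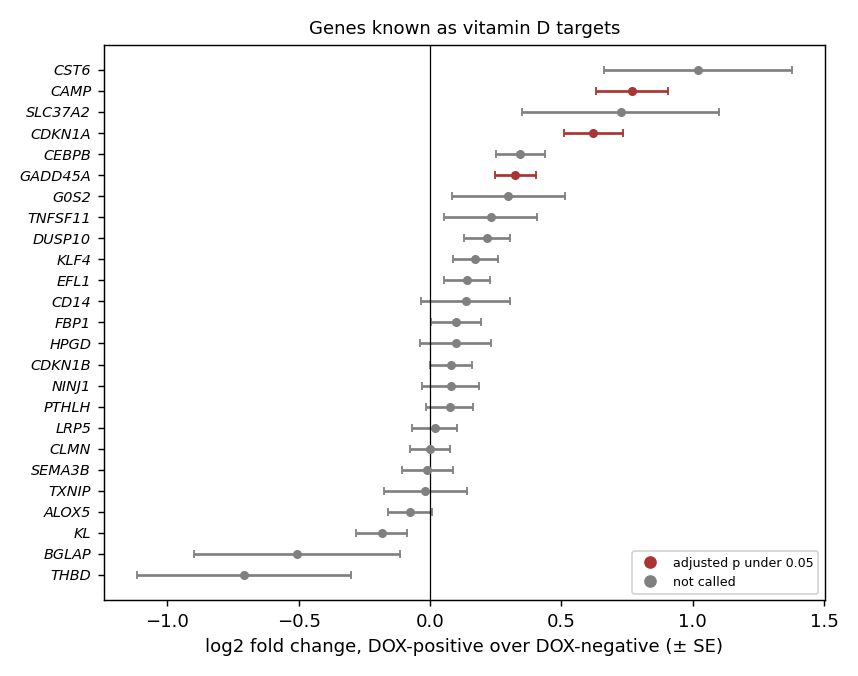
Log2 fold change (± SE, DOX-positive over DOX-negative) of the 25 tested genes known as vitamin D targets, with called genes in red. *CAMP* (0.77), *CDKN1A* (0.62) and *GADD45A* (0.33) are called, and the 6 genes below 0 are not.

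The promoters of these genes were read for the DR3 element, a direct repeat of 6-base half-sites with a spacer of 3 bases that VDR and RXR bind together. RefSeq promoter windows (GRCh38.p14, 250 bases before to 50 after the start) were found for 5 members, *RXRA*, *RXRB*, *RXRG*, *CYP2R1* and *TRPV6*, but not for *CYP24A1*, *VDR*, *CYP27B1* and *CALB1*. With up to 2 mismatches to the DR3 consensus on either strand, 0 of these 5 had a match and 14 of 28 target genes had one, beside 51.0% of all 27303 genes with a window (46.1% of 35114 windows). With up to 1 mismatch it was 1 target gene, *CD14*, beside 6.44% of all genes. The matches in *CAMP* and *CDKN1A*, the called targets with a match, and in *CD14* are shown to make clear how far they are from the repeat, with the half-sites in capitals.
CD14, 1 mismatch, chr5:140633166-140633180, minus strand: AGTTCAcaaGTGTGA
CAMP, 2 mismatches, chr3:48223278-48223292, plus strand: GGTTGTcagAGATGA
CDKN1A, 2 mismatches, chr6:36678541-36678555, minus strand: AGTTCCagcAGGCCA
These matches describe letters, not binding. Elements outside the promoter windows were not read, so a closer repeat further from the start would not have been seen.

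The factors that work with VDR and RXR were compared next. The list of VDR coregulators held 17 genes, among them *PDIA3* (-0.042), not an established coregulator. All 17 were tested, 11 higher and 6 lower, with a median of 0.026. Of them 1 was called (5.88%, beside 4.87% of all tested genes). This was *HR* (hairless), a corepressor that binds VDR, which was at 2.33, 1.71 and 2.00 CPM without DOX and at 3.97, 4.82 and 4.76 CPM with DOX. *HR* rose 2.24-fold (1.16, SE 0.15, adjusted p = 0.0029) and lost its call only in the fit of log2(TPM + 1) without a TPM minimum, out of 18 alternatives. The most abundant coregulators were the chromatin remodellers *SMARCA4*, at 46.0 TPM and -0.0096 (SE 0.081, adjusted p = 0.96), and *BAZ1B*, at 38.1 TPM and 0.14 (SE 0.086, adjusted p = 0.39). The coactivators *NCOA1*, *NCOA2* and *NCOA3* and the mediator subunit *MED1* were not called.

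Of the 15 other receptors that share RXR, 11 were tested, 9 higher and 2 lower, with a median of 0.19. Of the tested ones 2 were called (18.2%, beside 4.87% of all tested genes). *THRB*, a thyroid hormone receptor, rose from 0.545 ± 0.048 to 1.04 ± 0.247 CPM (SD, n = 3; 0.92, SE 0.23, adjusted p = 0.045). *RARG*, a retinoic acid receptor, rose from 8.47 ± 1.13 to 12.01 ± 1.62 CPM (0.50, SE 0.13, adjusted p = 0.046). Both calls were near the limit and did not hold in 8 of 17 and 12 of 20 alternatives, 5 of the fits without 1 library for *THRB* (0.71 to 1.06 over such fits) and 4 for *RARG* (0.41 to 0.61). The most abundant partners were *NR1H2* at 7.23 TPM (0.19, SE 0.091, adjusted p = 0.27) and *NR4A1* at 3.66 TPM (0.17, SE 0.094, adjusted p = 0.33).

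**Figure D5:**
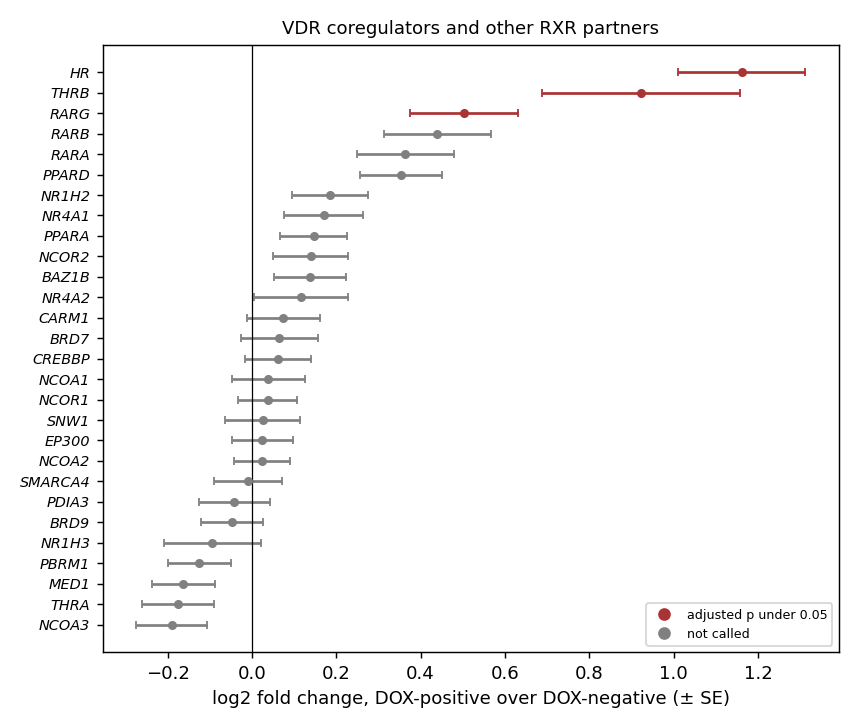
Log2 fold change (± SE, DOX-positive over DOX-negative) of 17 genes listed as VDR coregulators and 11 tested partners of RXR, with called genes in red. *HR* (1.16), *THRB* (0.92) and *RARG* (0.50) are called, and the abundant *SMARCA4* lies at -0.0096.

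The retinoid pathway was taken as the neighbouring use of RXR. Of 15 genes 12 were tested, 9 higher and 3 lower, with a median of 0.29. Of the tested ones 3 were called, all higher (25%, beside 4.87% of all tested genes called). *DHRS3*, a retinal reductase induced by retinoic acid, was at 9.53, 9.08 and 9.39 CPM without DOX and 14.5, 17.0 and 17.6 CPM with DOX (0.81, SE 0.099, adjusted p = 0.0024). *RDH10*, which oxidizes retinol, rose from 15.3 ± 0.18 to 19.99 ± 0.51 CPM (0.39, SE 0.081, adjusted p = 0.021), and *ALDH1A1*, which makes retinoic acid, rose from 150.9 ± 13.8 to 204.3 ± 32.4 CPM (SD, n = 3; 0.44, SE 0.11, adjusted p = 0.041). The binding protein *CRABP2* was at -0.086 (SE 0.11, adjusted p = 0.70). Of 20 alternatives the call was lost in 3 for *DHRS3*, all TPM fits, in 7 for *RDH10* and in 9 for *ALDH1A1*, the last including no scaling factors and limma-voom. In the 6 fits without 1 library *DHRS3* was called each time, while *RDH10* and *ALDH1A1* were each lost in 4.

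Of 15 further calcium transport genes, 11 were tested, 5 higher and 6 lower, with a median of -0.0056. Of the tested ones 1 was called (9.09%, beside 4.87% of all tested genes). *CALB2*, the calretinin relative of *CALB1*, rose from 9.29 ± 1.33 to 14.6 ± 2.58 CPM (SD, n = 3; 0.65, SE 0.14, adjusted p = 0.023). *CALB1* was called lower and *CALB2* higher. The *CALB2* call was lost in 7 of 20 alternatives, including the fits without DOX-negative replicate 2 or 3 and DOX-positive replicate 2 or 3 (0.51 to 0.78 over the fits without 1 library). *STIM1*, the sensor of calcium stores, was at 0.31 (SE 0.084, adjusted p = 0.053), and the secreted regulator *STC2* was at 0.19 (SE 0.076, adjusted p = 0.18).

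*CYP24A1* lies on chromosome 20 (GRCh38.p14, 54143538 to 54173986) and overlaps no other gene of the RefSeq table. Of the 3 nearest protein-coding genes on each side, *BCAS1* had counts only in DOX-negative replicate 2, *CBLN4* had 0 counts in every library, and 4 were tested. *ZNF217* was at -0.066 (SE 0.073, adjusted p = 0.66), *PFDN4*, the nearest on one side, at -0.14 (SE 0.21, adjusted p = 0.76) and *TSHZ2* at 0.096 (SE 0.21, adjusted p = 0.84). *DOK5*, a signalling adaptor, fell from 3.51 ± 0.28 to 2.38 ± 0.22 CPM (SD, n = 3; -0.56, SE 0.14, adjusted p = 0.037), a call lost in 6 of 18 alternatives, 5 of them fits without 1 library.

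The genes most like *CYP24A1* over the 6 libraries were taken, by the highest r, from the 14587 genes that averaged 50 counts or more, using Pearson's r of log2 CPM. They were LOC101927420 (r = 0.994), *SOX21-AS1* (0.991), *ZCCHC2* (0.989), *RFTN1* (0.987) and *SRPRA* (0.987). The 6 libraries form 2 groups, so these values mostly restate the group difference, and 76 genes had an r over 0.95. For deviations from the group means r was 0.912, 0.936, 0.830, 0.753 and 0.730 for the same 5 genes. Picking the highest r over the same 6 libraries favours a high r of deviations too, so these values are no separate sign of likeness. Among the members, *VDR* had an r of 0.913 over the libraries but -0.25 for the deviations, and *CYP27B1* had 0.803 and -0.35.

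Signals beyond these genes moved with DOX as well. Among genes with a mean of under 1000 counts 3.58% were called higher and 1.54% lower, and among more abundant genes 2.3% and 2.34%. Of 6 fibroblast markers, *COL1A1* (0.60) and *LUM* (1.06) were called higher, while *COL1A2*, the one with the highest mean count, was at 18.1 ± 3.48 CPM without DOX and 11.1 ± 3.77 CPM with DOX (-0.71, SE 0.27, adjusted p = 0.20). *COL3A1*, *DCN* and *PDGFRB* had at most 2 counts in any library and the list summed to 2.41 to 3.47 TPM without DOX and 2.46 to 3.64 TPM with DOX. Of 4 endothelial markers, *VWF* (0.97) and *CDH5* (0.94) were called higher, *KDR* was at -0.74 (SE 0.49, adjusted p = 0.44), *PECAM1* had at most 6 counts, and the sum was 0.37 to 0.57 against 0.74 to 0.90 TPM. Of 5 immune markers, *CD68* was called higher, *PTPRC* had at most 1 count, and the sum was 0.32 to 0.41 against 0.52 to 0.72 TPM. Their part in the results above was not tested.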

How the data were processed

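RNA-seq libraries (TruSeq Stranded mRNA, per the labels) of 6 cultures were analysed, and groups and replicate numbers were read from sample titles. The authors deposited unnormalized counts for 28008 gene symbols, and the labels name STAR, DESeq2 and GRCh38. They also deposited TPM, which adjust for gene length, for 25673 genes. The versions, annotation and strand setting were not given in the sources used here. Counts were tested with edgeR 4.0.16 in R 4.3.3 (filterByExpr, TMM factors, robust quasi-likelihood test, no covariate), with Benjamini-Hochberg adjustment over all 17026 genes tested. SE values were derived from the F statistic. Replicates of 1 group differed by more than sampling noise (chi-square of 14.8 to 90.0 per degree of freedom).

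The members and lists were chosen with earlier results of these data known. Genes were named by rule: all members, *MUC1*, the neighbours of *CYP24A1*, the 5 genes most like it, and from each of 9 lists the called genes (at most 6) and the 2 with the highest TPM. Other genes were named after their values were seen. Names, positions, overlaps and promoters came from RefSeq (GRCh38.p14), which held 91.6% of the symbols. The code was tested on simulated counts.

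Alternatives were no scaling, RLE or upper-quartile factors, 2 other count filters, DESeq2 1.42.0, limma-voom (limma 3.58.1), limma-trend on TPM with pseudocounts of 1 and 0.1, no robust estimation, protein-coding genes only, a replicate block and leaving out each library. A fit with GC and length trends removed, for the 93.0% of tested genes with a value, was added after seeing the data.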

Additional observations from a re-analysis of the deposited data

How the results depend on the processing

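The 829 called genes became 1354 with DESeq2, 2100 with GC and length trends removed, 30 for log2(TPM + 1) and 35 for log2(TPM + 0.1) among genes averaging 1 TPM or more, and 0 by limma for log2(TPM + 1) with no TPM minimum, where 1248 genes had an unadjusted p under 0.05 (3597 with counts in edgeR). In the reported fit 4.87% of all tested genes were called. *CYP24A1* chose the set by this contrast, so nothing is read from the counts of members below. Members past the threshold, *CYP24A1* included, were 3 in the reported fit, 2 with no scaling or at least 1 CPM in 3 libraries and 4 with GC and length trends removed. They were 0 in those 3 TPM fits, but *CYP24A1*, *VDR* and *CALB1* average under 1 TPM and were not tested in those with a minimum. The *CYP24A1* log2 fold change was 0.19 on log2(TPM + 1) with no TPM minimum, where the pseudocount is above its level of 0.102 TPM, and it was not tested under a minimum of 1 TPM on average or of 1 CPM in 3 libraries. Fits without 1 library gave 58 to 1035 called genes, 1 to 3 members called and *CYP24A1* changes of 2.41 to 3.10, the highest without DOX-negative replicate 2. The lowest counts came without DOX-negative replicate 3 (58) and replicate 2 (127), and 375 genes were called without DOX-positive replicate 3.

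With the replicate block 998 genes and 3 members were called and *CYP24A1* was at 2.66. Deviations of same-numbered libraries correlated at -0.54, 0.019 and -0.10, so no clear positive link was seen. With 3 libraries per group these values cannot show whether the numbers pair the samples.

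Of 794 values of the other 41 named genes over 20 alternatives, 652 kept direction and side of the threshold, 105 lost a call, 16 gained one and 21 changed sign. The sign changes were all of uncalled genes near 0. *CYP2R1* was at 0.012, 0.0089 and 0.012 in the 3 TPM fits and 0.0019 with GC and length trends removed, and *SMARCA4* at 0.015, 0.016 and 0.015 in the 3 TPM fits. The others came without 1 library, where *CYP2R1* ranged from -0.11 to 0.080, *SMARCA4* from -0.079 to 0.032, *TXNIP* from -0.25 to 0.11, *PFDN4* from -0.32 to 0.090, *TSHZ2* from -0.038 to 0.22 and *CRABP2* from -0.18 to 0.042. The causes were not tested. *CYP24A1*, *RXRG* and *TRPV6* were limited by depth, at a mean of 39.5, 5.0 and 0.17 counts per library.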
